A study of Mus musculus with 3 samples.

Results

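The genes described here were the 7 cyclin-dependent kinase (CDK) inhibitor genes that are used as readouts of cellular senescence, Cdkn1a, Cdkn1b, Cdkn1c, Cdkn2a, Cdkn2b, Cdkn2c and Cdkn2d. They were listed by gene symbol with no threshold on a measured value, and they are 7 of the 32285 genes counted in the series. Single-cell RNA sequencing was done on dorsal skin of C57BL/6J mice, wild type and labelled female, which were 8 weeks old at the start. The CON library came from skin that was not irradiated, and the study describes CON and UV skin as given the vehicle. The UV library came from skin irradiated every other day for 12 weeks with UVA (0.60 mW/cm2) together with UVB (3.5 mW/cm2), and the Rux library from skin that had the same exposure with 1.5% ruxolitinib ointment, an inhibitor of the kinases JAK1 and JAK2, applied directly after each irradiation. Irradiated tissue was taken 24 h after the last exposure. Each condition was 1 library, so no difference below has a replicate check and no p-value is given. How many mice went into a library is not given in the sources used here.

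CDK inhibitors hold back the cell cycle by keeping cyclin-CDK complexes from phosphorylating the retinoblastoma protein. The CIP/KIP proteins p21 (Cdkn1a), p27 (Cdkn1b) and p57 (Cdkn1c) bind whole cyclin-CDK complexes, whereas the INK4 proteins p16 (Cdkn2a), p15 (Cdkn2b), p18 (Cdkn2c) and p19 (Cdkn2d) bind CDK4 and CDK6 and keep them from cyclin D. Cdkn2a also encodes p19Arf, which shields p53 from MDM2, and p53 in turn is a transcriptional activator of Cdkn1a. In skin, Cdkn1a and Cdkn2a are the transcripts most often read as marks of senescent cells, although Cdkn1a is also induced by stress and on exit from the cell cycle.

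The positions below are from the GENCODE M21 annotation of GRCm38. Cdkn2a (ENSMUSG00000044303) lies on the minus strand of chromosome 4 at 89274471-89294653, and Cdkn2b lies 11645 bases away at 89306299-89311039. Cdkn2c is on the same chromosome at 109660876-109667189. Cdkn1a (ENSMUSG00000023067) is on the plus strand of chromosome 17 at 29090976-29100727, Cdkn1b on chromosome 6 at 134920401-134925513, Cdkn1c on chromosome 7 at 143458339-143461050 and Cdkn2d on chromosome 9 at 21288410-21291407. Cdkn2a has 2 coding transcripts of 3 exons each, one starting at 89282192 for p16Ink4a and one at 89294653 for p19Arf. They share their 3′ exons, and the libraries counted 3′ ends, so every Cdkn2a value below is the sum of both. Cdkn1a and Cdkn1c each overlap 1 gene on the opposite strand.

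The sequences before the starts of Cdkn2a and Cdkn1a are shown because the first gene has separate starts that these counts could not tell apart and because both are the senescence readouts that the results below turn on. Each run is the 250 bases before a RefSeq transcript start on GRCm38.p6, 5′ to 3′ on the strand of the gene. Capitals mark letters of a motif searched on both strands, which were the GC box GGGCGG, the AP-1 site TGANTCA, paired p53 core letters (CATG, any 6 bases, CATG), the STAT site TTCNNNGAA and the E-box CACGTG. Starts were found for 6 of the 7 genes.
Cdkn2a before the p19Arf start, chr4:89294620-89294869, minus strand: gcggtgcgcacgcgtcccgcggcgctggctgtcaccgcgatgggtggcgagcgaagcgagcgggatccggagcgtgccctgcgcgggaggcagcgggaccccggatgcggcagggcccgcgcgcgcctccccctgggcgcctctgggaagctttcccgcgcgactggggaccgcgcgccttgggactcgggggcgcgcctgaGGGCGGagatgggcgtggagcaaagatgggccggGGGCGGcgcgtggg
Cdkn2a before the p16Ink4a start, chr4:89282193-89282442, minus strand: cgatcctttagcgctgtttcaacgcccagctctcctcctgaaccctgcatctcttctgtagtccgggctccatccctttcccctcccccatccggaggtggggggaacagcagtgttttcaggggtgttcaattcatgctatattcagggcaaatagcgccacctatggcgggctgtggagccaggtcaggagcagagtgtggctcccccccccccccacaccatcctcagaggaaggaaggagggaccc
Cdkn1a before the upstream start, chr17:29090729-29090978, plus strand: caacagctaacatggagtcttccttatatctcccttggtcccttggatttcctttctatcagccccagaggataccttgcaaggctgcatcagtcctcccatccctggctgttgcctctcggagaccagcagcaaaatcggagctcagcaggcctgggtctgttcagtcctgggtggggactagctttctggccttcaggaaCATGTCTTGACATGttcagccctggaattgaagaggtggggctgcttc
The p19Arf window held 2 GC boxes, a motif found in 33.0% of 32536 promoter windows of the same length, and had a GC content of 78.4%. None of the 5 motifs was found in the p16Ink4a window. The window before the upstream Cdkn1a start held 1 match to the paired p53 core letters, which were present in 0.464% of all windows. Cdkn1a has another start, at 29093769, whose window held 2 GC boxes and is not printed. The windows before the other starts of the members held no match to those letters. A match describes letters and was not tested as a binding site.

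After removal of predicted doublets and low-quality cells, 10777 CON, 10231 UV and 9299 Rux cells remained, with 140959836, 117340092 and 115727559 unique molecular identifiers (UMIs, each a counted transcript molecule). Cells were clustered without the 7 members and each cluster was named after marker genes, giving the names "X-like" below. Fibroblast-like cells (FB-like) had all 6 of their markers in every library, with a summed marker level of 34153 CPM (UMIs per 1000000 UMIs of the class) in CON, 26006 in UV and 26494 in Rux, against 1343, 1940 and 2422 in the remaining cells. CON and UV shared 50 cell barcodes, CON and Rux 28, and UV and Rux 40. The Y-linked gene Ddx3y was present at 110, 115 and 121 CPM in CON, UV and Rux and Xist at 0.0922, 0.119 and 0.112 CPM, which goes against the label female equally in all 3 libraries. A level is the UMIs of a gene summed over a class, in CPM, with an exact Poisson 95% interval. A ratio is on the log2 scale with 0.5 UMI added to each sum and an exact 95% interval. Both intervals cover counting error, with each UMI taken as an independent draw, and not the spread between cells or between mice. They can be too narrow where few cells hold most UMIs of a gene. Levels were not divided by transcript length, so each gene is compared across cells and libraries and not with other genes.

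The members were distributed differently over the skin, although some shared their highest class. Cdkn1a, the p53 target, was measured in every class and stood highest in vascular and neural support cells, at 1103 CPM in CON pericyte-like cells (PCY-like), 991 in lymphatic endothelial-like (LEC-like), 968 in Schwann-like (SCH-like) and 917 in vascular endothelial-like cells (VEC-like). The SCH-like interval overlapped those of the other 3 classes in CON, whereas those of PCY-like, LEC-like and VEC-like cells did not overlap one another. In Rux, SCH-like and VEC-like cells were highest, and PCY-like and LEC-like cells lay at 545 and 491 CPM beside 565 CPM in mast cell-like cells. Keratinocytes and fibroblasts lay lower, at 166 CPM in CON basal keratinocyte-like cells (KB-like) and 448 CPM in CON FB-like cells, while inner root sheath-like cells (IRS-like) had 587 CPM. Cdkn1b, which holds resting cells out of the cycle, was highest in SCH-like cells in all libraries, at 273 CPM in CON, 313 in UV and 348 in Rux. In CON its interval there overlapped that of the next class. Cdkn1c, an imprinted growth-restraining gene, was highest in FB-like cells in all libraries, followed by SCH-like cells at 123, 95.6 and 80.7 CPM. FB-like cells, 30.5% of CON, 47.9% of UV and 49.9% of Rux cells, held 70.2%, 81.2% and 85.6% of all Cdkn1c UMIs.

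The INK4 genes did not all stand highest in the same class. Cdkn2a was highest in FB-like cells in CON and Rux, which held 68.0% and 75.9% of its UMIs. In UV the FB-like share was 43.9%, and the FB-like level there overlapped that of the next class. SCH-like cells had no Cdkn2a UMI in any library, which at 3 UMIs allows up to 7.52 CPM in CON, 5.31 in UV and 8.35 in Rux. Cdkn2b, which is induced by TGF-beta, was instead highest in differentiating epithelium. IRS-like cells, 2.65%, 4.36% and 4.02% of all cells, held 16.3% of its UMIs in CON, 32.6% in UV and 35.9% in Rux. The level of Cdkn2b in IRS-like cells was 34.0 CPM in CON, beside 35.0 CPM in suprabasal keratinocyte-like cells, and these intervals overlapped. Cdkn2d was highest in SCH-like cells, at 118, 154 and 175 CPM. Cdkn2c was also highest there, at 37.6, 42.5 and 64.0 CPM, although its intervals overlapped those of the next class.

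**Figure D1:**
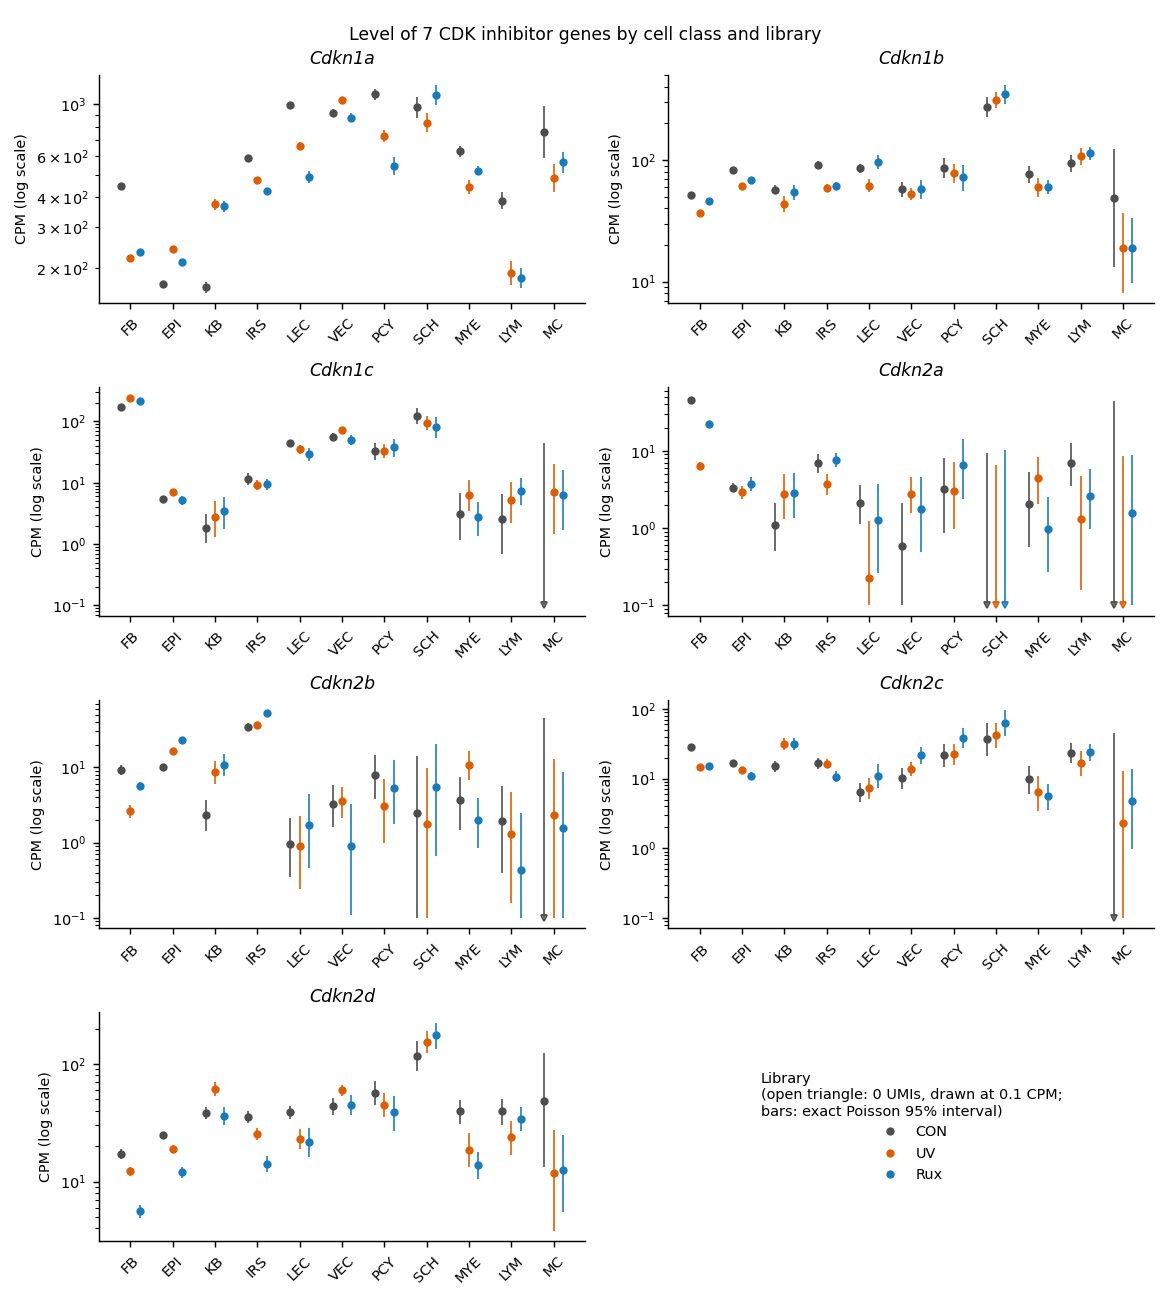
Level of each member in CPM (log axis) in the 11 classes with at least 50 cells in every library, with exact Poisson 95% intervals and open triangles for 0 UMIs drawn at 0.1 CPM. EPI is the mixed keratinocyte class and MYE, LYM and MC are myeloid-like, lymphocyte-like and mast cell-like cells; Cdkn1a lies highest in LEC, VEC, PCY and SCH in CON and UV and in SCH and VEC in Rux, Cdkn1c in FB, Cdkn2b in IRS, and Cdkn1b and Cdkn2d in SCH.

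In FB-like cells, the question was how the inhibitors differed between irradiated and unirradiated dermis and whether the ruxolitinib library differed from the UV library. In the summed UMIs, Cdkn2a, Cdkn2b, Cdkn1a and Cdkn2c were each lower in UV than in CON by more than 1.5-fold, and no member was higher by that much. In Rux, Cdkn2a and Cdkn2b were above UV by more than 1.5-fold, Cdkn2d was below it, and Cdkn1a stayed near its UV level. Among the 8237 genes with at least 10 CPM and 100 UMIs in these cells, 7.93% were lower in UV by that fold, 6.52% higher and 14.4% either way, so the 4 of 7 members that were lower stand against a background of 7.93%. Among 8053 genes, 3.40% were higher and 5.53% lower in Rux than in UV, or 8.93% either way, beside 2 members higher and 1 lower. Cdkn2b and Cdkn2d did not pass the filter of those genes. Of the 5 members that passed it, 1 was higher in Rux (Cdkn2a) and none was lower. For UV over CON, Cdkn2b did not pass the filter, and 3 of the 6 members that passed were lower in UV. The median log2 ratio for UV over CON was −0.96 over all 7 members, −0.73 over those 6 and −0.10 over all genes tested.

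Cdkn2a differed most. Its level in FB-like cells was 45.9 CPM in CON (1001 UMIs), 6.37 CPM in UV (236 UMIs) and 22.5 CPM in Rux (1146 UMIs). UV was the lowest library and Rux lay between UV and CON, with no overlap of the intervals. The log2 ratio was −2.85 for UV over CON (−3.06 to −2.64), 7.19-fold lower, and 1.82 for Rux over UV (1.62 to 2.03), 3.53-fold higher, leaving Rux at −1.03 relative to CON. The transcript was carried by few cells. A Cdkn2a UMI was found in 7.74% of CON, 2.06% of UV and 6.57% of Rux FB-like cells, and after each cell was thinned to 2000 UMIs in 3.95%, 0.774% and 2.20%. In SCH-like cells it was found in 0 of 143, 0 of 183 and 0 of 102 cells, which allows shares up to 2.10%, 1.64% and 2.94% at median depths of 2547, 2647 and 3308 UMIs; these limits are for cells with a UMI at that depth and not for cells that express the gene. It was found in 3.56%, 0.830% and 0.831% of lymphocyte-like cells (LYM-like). The UV share in FB-like cells was thus above that of UV LYM-like cells and below that of CON LYM-like cells, where the gene had few UMIs. Cells with 5 or more Cdkn2a UMIs numbered 75, 10 and 81 and held 66.5%, 32.2% and 63.6% of the FB-like UMIs of the gene.

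Cdkn2b, the neighbour of Cdkn2a, was at 9.26 CPM in CON, 2.62 in UV and 5.74 in Rux. The order of the libraries was that of Cdkn2a, with log2 ratios of −1.82 (−2.19 to −1.47) and 1.13 (0.79 to 1.48). Its UMIs numbered 202, 97 and 292. Cdkn1a was at 448 CPM in CON, 222 in UV and 234 in Rux, from 9768, 8211 and 11883 UMIs. Here CON stood apart and the irradiated libraries lay close together, with ratios of −1.01 (−1.06 to −0.97) and 0.07 (0.03 to 0.12). Cdkn2c, at 28.9, 14.9 and 15.3 CPM, had the same shape, with ratios of −0.96 (−1.13 to −0.79) and 0.04 (−0.12 to 0.20). A CON cluster weight is a cluster's share of CON cells, among clusters with at least 20 cells in both libraries compared. With these weights, the Cdkn2c ratio for UV over CON was −0.52 and no longer past 1.5-fold.

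The remaining members differed less or in another direction. Cdkn1c was at 173 CPM in CON, 240 in UV and 214 in Rux, the sole member whose level was above CON in both irradiated libraries, with ratios of 0.47 (0.41 to 0.52) for UV over CON and −0.17 (−0.21 to −0.13) for Rux over UV. With CON cluster weights, the Cdkn1c ratio for UV over CON was 0.67 and past 1.5-fold. Cdkn1b was at 52.0, 36.8 and 45.9 CPM, lowest in UV, within 1.5-fold in both comparisons. Cdkn2d was at 17.2, 12.2 and 5.56 CPM and was lowest in Rux, with a Rux over UV ratio of −1.14 (−1.36 to −0.92). Immediate-early genes, which are induced when skin is dissociated, also differed between the libraries. Of 18 such genes, 18 were lower in UV than in CON in FB-like cells and 15 by more than 1.5-fold, with a summed level of 25826 CPM in CON, 12956 in UV and 13839 in Rux. Their part in the Cdkn1a result was not tested. Socs3, a feedback target of JAK-STAT signalling on that list, was at 937 CPM in CON, 431 in UV and 129 in Rux FB-like cells.

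**Figure D2:**
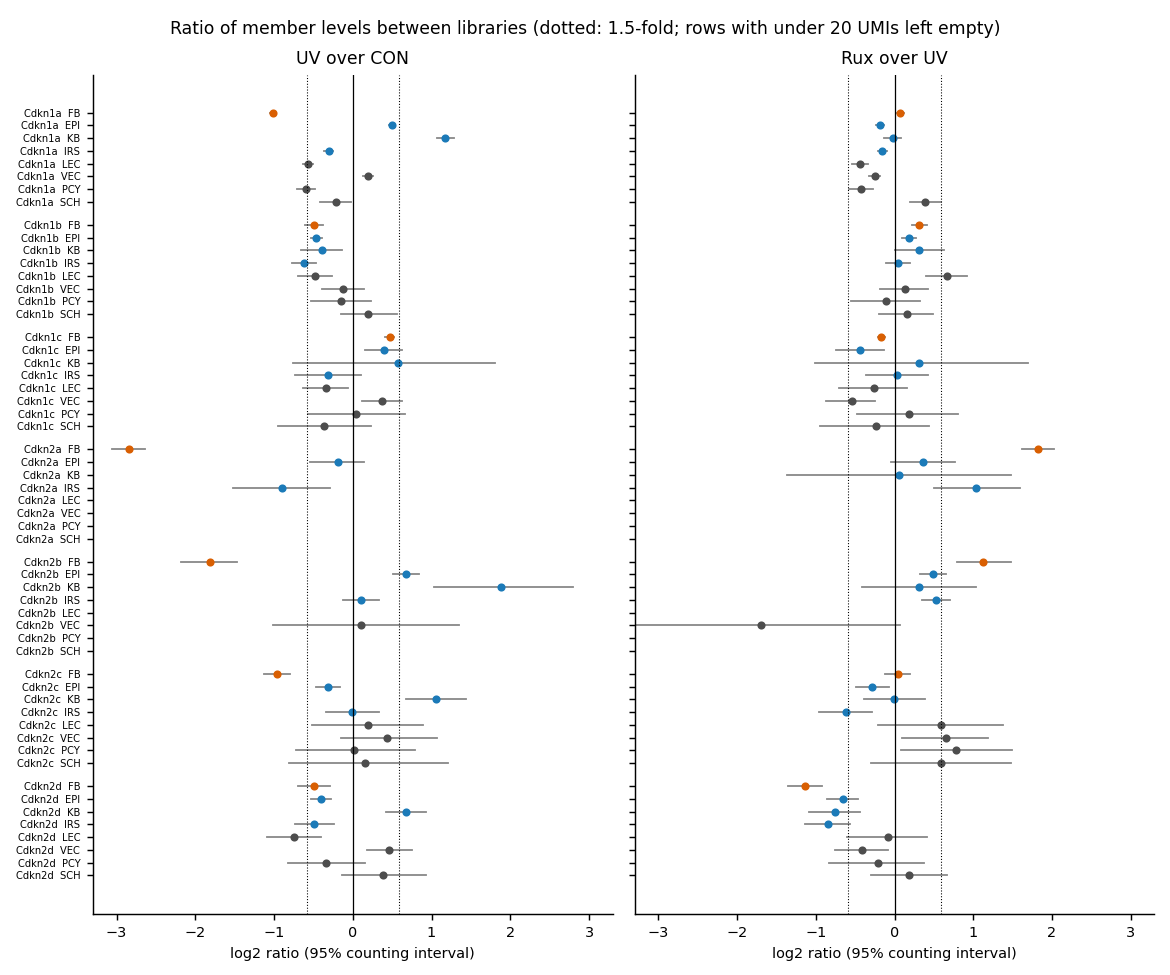
Log2 ratio of each member for UV over CON and Rux over UV in 8 classes, with exact 95% counting intervals, dotted lines at 1.5-fold, and FB in orange, keratinocyte classes in blue and others in grey; pairs with under 20 UMIs are empty. In FB, Cdkn2a lies at −2.85 and then 1.82 and Cdkn2b at −1.82 and then 1.13, while Cdkn1a lies at −1.01 in FB and 1.17 in KB for UV over CON.

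The fibroblast-like cells formed 9 clusters, and Cdkn2a was concentrated in a few of them. The clusters are called by their leading gene, chosen after the values were seen. The Igfbp2 cluster (13), led by an IGF-binding protein gene, had 159 CPM of Cdkn2a in CON, 79.6 in UV and 132 in Rux. It was the highest or, in UV, nearly the highest of the clusters, and its level in UV was the lowest of the 3 libraries. The Postn cluster (4), led by the matricellular protein gene periostin, had 141 CPM in CON, 11.2 in UV and 40.7 in Rux, ratios of −3.64 and 1.85. The Coch cluster (37) had 101, 89.2 and 72.6 CPM and differed little, with ratios of −0.19 and −0.29. The Igfbp2 cluster made up 10.9% of CON, 1.39% of UV and 5.51% of Rux FB-like cells and held 57.6%, 31.8% and 43.9% of their Cdkn2a UMIs. The Postn cluster was 4.48%, 11.5% and 18.9% of the cells and held 23.2%, 29.2% and 45.7% of the UMIs.

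The FB-like ratios of Cdkn2a thus combine a level within clusters and a different mix of clusters. With CON cluster weights, the ratios were −1.59 for UV over CON and 0.73 for Rux over UV. These weights count cells and not UMIs, and CON itself was then at 32.7 CPM in place of 45.9. The distance from the summed ratios is therefore not that of the cluster mix alone. Without the Igfbp2 cluster, a setting chosen after seeing the data, the ratios were −2.38 and 1.61. Within the Igfbp2 cluster they were −0.99 (−1.37 to −0.65) and 0.72 (0.37 to 1.10), resting on 359, 68 and 256 cells. For Cdkn2b the Igfbp2 cluster had 31.2, 21.2 and 42.2 CPM and held 55.9%, 20.6% and 55.1% of the FB-like UMIs. Without it, the Rux over UV ratio of Cdkn2b was 0.38 and no longer past 1.5-fold. The largest FB-like cluster was the Myoc cluster (0) in CON, with 1528 cells, and the Gpr39 cluster (1) in UV, with 916.

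Cdkn1a behaved differently across the same clusters. It was lower in UV than in CON in 7 of 8 clusters with at least 20 cells in both libraries, and in 6 of them the interval lay below 0. In the Myoc cluster it was at 400 CPM in CON, 243 in UV and 221 in Rux. In the Smpd3 cluster (8) it was at 505, 140 and 125 CPM, and in the Postn cluster at 509, 208 and 183. The Igfbp2 cluster kept a high level, with 546 CPM in CON, 499 in UV and 642 in Rux, and the Coch cluster was the highest, with 805, 902 and 802 CPM. Cdkn1c was higher in UV than in CON in 7 of 8 clusters, with all 7 intervals above 0.

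Cdkn1a and Cdkn2b were also found together with Cdkn2a in single fibroblast-like cells thinned to 2000 UMIs. Of cells with a Cdkn2a UMI, which numbered 124 in CON, 36 in UV and 99 in Rux, 67.7%, 61.1% and 62.6% also had a Cdkn1a UMI. Of the cells without one, 38.4%, 27.0% and 26.8% did. For Cdkn2b the shares were 11.3%, 5.56% and 7.07% against 0.961%, 0.455% and 0.657%. Cdkn1c went the other way, with 7.26%, 5.56% and 23.2% against 24.2%, 31.2% and 29.0%. Within the Igfbp2 cluster alone, Cdkn1a was found in 69.1%, 62.5% and 80.0% of cells with a Cdkn2a UMI and in 46.5%, 42.4% and 46.8% of those without. That cluster held 359 CON, 68 UV and 256 Rux cells in all, so the UV shares rest on few cells.

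**Figure D3:**
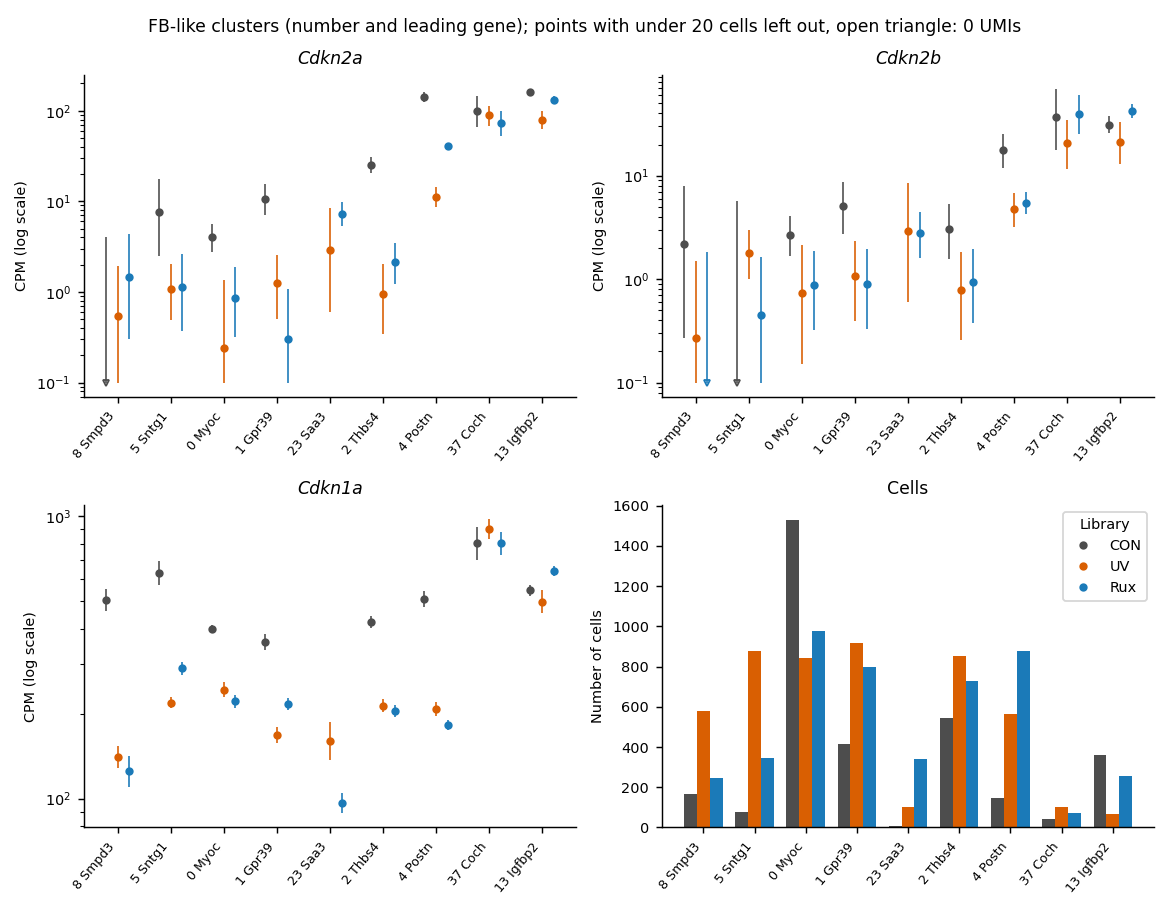
Levels of Cdkn2a, Cdkn2b and Cdkn1a in CPM (log axis, exact Poisson 95% intervals) and the number of cells in the 9 FB-like clusters, named by number and leading gene, with points under 20 cells left out and 0 UMIs as open triangles. Cdkn2a lies highest in the Postn, Igfbp2 and Coch clusters, and the Igfbp2 cluster has 359 cells in CON, 68 in UV and 256 in Rux.

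Basal keratinocyte-like cells showed a different pattern from the dermis. Cdkn1a in KB-like cells was at 166 CPM in CON, 374 in UV and 368 in Rux, from 1343, 1372 and 1294 UMIs. Both irradiated libraries were above CON and overlapped each other, with ratios of 1.17 (1.06 to 1.28) and −0.02 (−0.13 to 0.09). Cdkn2b was at 2.34, 8.71 and 10.8 CPM from 19, 32 and 38 UMIs, a UV over CON ratio of 1.88 (1.03 to 2.79). In all, 5 of 7 members were higher in UV than in CON by over 1.5-fold (Cdkn1a, Cdkn2a, Cdkn2b, Cdkn2c and Cdkn2d) and none was lower, beside 14.5% of 8426 genes higher and 7.84% lower. Cdkn1c, Cdkn2b and Cdkn2a, the last with 9, 10 and 10 UMIs, did not pass the filter of those genes. Of the 4 members that passed it, 3 were higher in UV than in CON and none was lower. Between Rux and UV, 1 of 7 was lower and none higher, beside 5.18% lower and 3.91% higher.

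The KB-like class was 560 CON, 105 UV and 131 Rux cells, and its makeup differed. Cluster 17 held 482 of the CON cells and 25 of the UV cells, whereas cluster 38, with 78, 80 and 53 cells, held most of the UV cells. Within cluster 17, Cdkn1a was at 162 CPM in CON, 334 in UV and 283 in Rux, and within cluster 38 it was at 181, 382 and 435. The higher level after irradiation was thus present in each. Cdkn2c and Cdkn2d did not share this. Cdkn2c was at 15.2, 31.6 and 31.5 CPM in the class, but at 43.2, 36.2 and 50.1 within cluster 38. Cdkn2d was at 38.5, 61.5 and 36.4 CPM in the class and 69.6, 70.1 and 59.8 within cluster 38, and its UV over CON ratio was −0.32 with every cluster at its CON weight. At a clustering resolution of 0.8, where the class held 80 CON cells, the Cdkn2c ratio was −0.25. The class held 113 CON cells without doublet removal and 846 with up to 20% mitochondrial counts, so its size depended on the setting. Cells with at least 4 of 12 proliferation transcripts were 15.9% of the KB-like class in CON, 79.0% in UV and 48.1% in Rux. The median depth of the class was 11606, 28783 and 22556 UMIs, in the same order as these shares. The cells were not thinned for this count, and the part of depth was not tested.

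In the larger mixed keratinocyte class (EPI), whose clusters had keratinocyte marker sets that could not be ranked, the differences were smaller. It held 2593 CON, 1406 UV and 1086 Rux cells. Cdkn1a was at 171, 242 and 213 CPM, highest in UV, with a UV over CON ratio of 0.50 (0.46 to 0.54). Cdkn2b was at 10.2 CPM in CON, 16.3 in UV and 23.0 in Rux, from 671, 602 and 613 UMIs. Its ratios were 0.68 (0.51 to 0.84) and 0.49 (0.33 to 0.66), so its class sum was higher in Rux than in UV as well. With CON cluster weights the Rux over UV ratio of Cdkn2b was 0.21. That ratio was above 0 in 4 of 7 clusters and below 0 in 3, with the interval above 0 in 1. Past 1.5-fold were 1 of 7 members higher in UV than in CON, beside 4.76% of 8675 genes higher and 3.26% lower, and 1 of 7 lower in Rux than in UV, beside 2.03% of 8641 genes lower and 3.23% higher. These were Cdkn2b and Cdkn2d, each among the 5 members that passed the filter in its comparison. The UV over CON ratio of Cdkn2b was under that fold at a resolution of 0.8 (0.52), without doublet removal (0.54) and with CON cluster weights (0.57).

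Individual keratinocyte clusters differed more than the class. In cluster 10, led by Gm973 and holding the hair follicle stem cell genes Lgr5 and Lhx2, Cdkn1a was at 93.7 CPM in CON, 243 in UV and 140 in Rux. UV was highest there, with ratios of 1.37 and −0.79, and immediate-early genes summed to 10696, 21161 and 22005 CPM in the same cells. In cluster 29, of dividing cells, Cdkn1a was at 75.7, 89.7 and 31.2 CPM. In the Pthlh cluster (28), by contrast, it was highest in CON, at 453, 322 and 287 CPM. Cdkn2b in that cluster was at 27.1, 75.2 and 67.8 CPM, higher in both irradiated libraries. In the Krt35 cluster (30) of the IRS-like class, led by hair shaft keratin genes, Cdkn2b was at 51.1, 69.6 and 112 CPM, highest in Rux with a Rux over UV ratio of 0.69 (0.43 to 0.95). Leading genes are given as names and were seen before they were chosen.

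**Figure D4:**
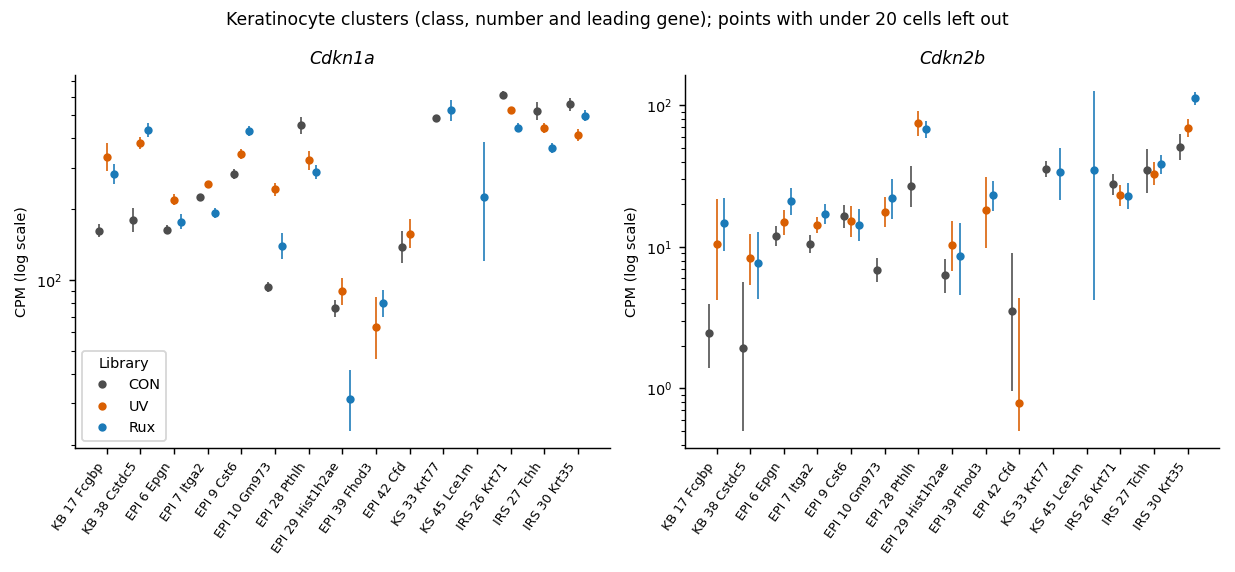
Levels of Cdkn1a and Cdkn2b in CPM (log axis, exact Poisson 95% intervals) in the KB, EPI, KS (suprabasal keratinocyte-like) and IRS clusters, named by class, number and leading gene, with points under 20 cells left out. Cdkn1a is higher in UV than in CON in KB clusters 17 and 38 and EPI cluster 10 and lower in EPI cluster 28, and Cdkn2b reaches 112 CPM in Rux cells of IRS cluster 30.

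Keratinocytes with several proliferation transcripts and other keratinocytes differed in the members they held. In EPI cells, those with at least 4 of 12 proliferation transcripts numbered 1390 in CON, 692 in UV and 359 in Rux, or 53.6%, 49.2% and 33.1%. They are called dividing below, a name that rests on this count in unthinned cells and not on a test of division. Cdkn2c, which is known to rise with E2F activity, was at 19.4, 15.6 and 14.5 CPM in those cells and 8.74, 8.33 and 7.02 CPM in the others, higher in dividing cells in each library. Cdkn2d was also higher there, at 27.5, 20.3 and 15.3 CPM against 18.1, 16.1 and 8.30. Cdkn2b and Cdkn1a were lower. For Cdkn2b the levels were 9.48, 14.1 and 16.5 CPM in dividing cells and 12.4, 21.4 and 30.3 CPM in the others, and for Cdkn1a 151, 228 and 163 CPM against 229, 272 and 269. The dividing cells were deeper, with a median of 28465, 29252 and 32425 UMIs against 12527, 13086 and 15012, and the part of depth was not tested.

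The same split was made in KB-like cells. Cdkn2c was at 37.0, 35.5 and 44.7 CPM in dividing and 8.78, 11.6 and 5.86 CPM in other KB-like cells, and within either group its UV level lay close to CON. Cdkn1a was at 171, 382 and 393 CPM in dividing and 164, 330 and 317 CPM in other cells, so it was higher after irradiation in both. Unlike in EPI cells, it was not lower in the dividing cells. In IRS-like cells the Cdkn1a log2 ratio of dividing over other cells was 0.19 (0.10 to 0.29) in CON and 0.27 (0.19 to 0.35) in UV. It was 0.06 (−0.03 to 0.14) in Rux. Cdkn2d in Rux was at 52.4 CPM in dividing and 5.02 CPM in other KB-like cells.

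**Figure D5:**
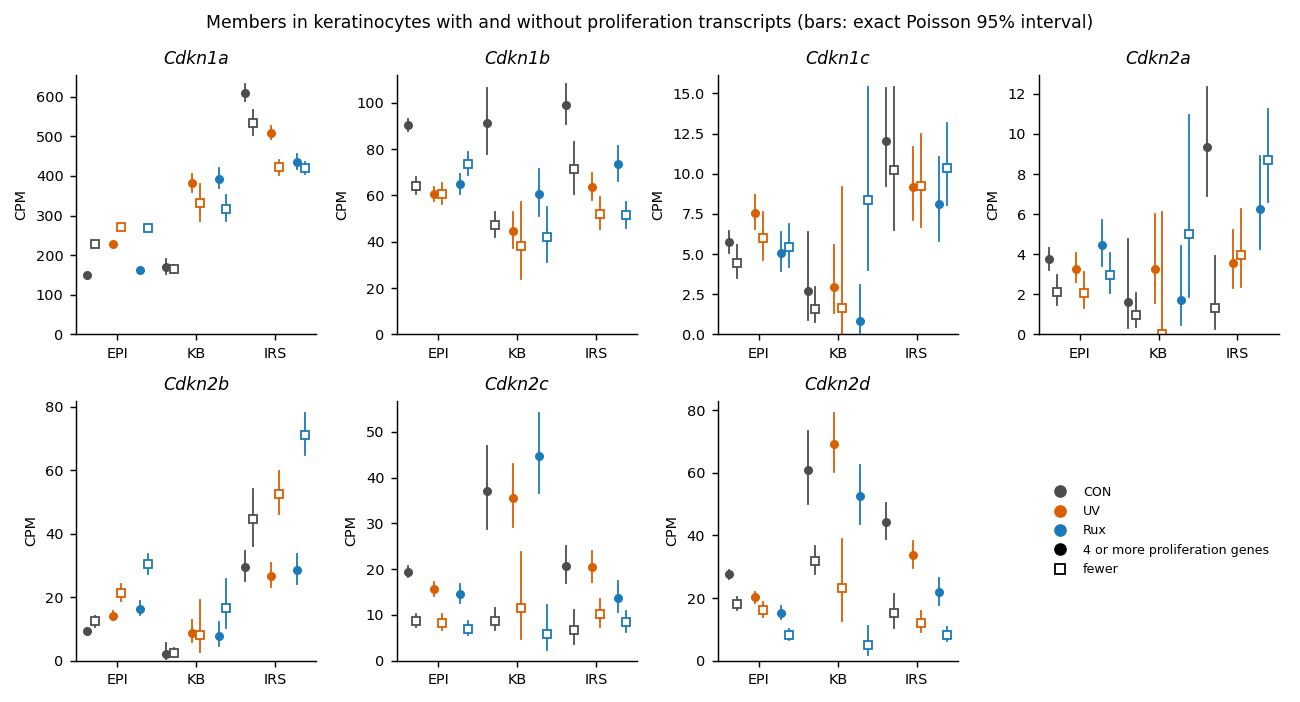
Level of each member in CPM with exact Poisson 95% intervals in EPI, KB and IRS cells with at least 4 of 12 proliferation genes (filled circles) and with fewer (open squares). Cdkn2c and Cdkn2d lie higher in the filled points in every library of EPI and KB, and Cdkn2b lies lower in the filled points of EPI and IRS.

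Across the 11 classes, Cdkn2d and Cdkn1b differed the same way in most classes. Cdkn2d was lower in Rux than in UV in 8 of the 10 classes with at least 20 UMIs, with the interval below 0 in 5 and above 0 in none. Over all cells it was at 30.6 CPM in CON, 24.5 in UV and 13.0 in Rux, a Rux over UV ratio of −0.92 (−1.01 to −0.83). In IRS-like cells it was at 35.6, 25.4 and 14.1 CPM, and in myeloid-like cells (MYE-like) at 39.5, 18.7 and 13.8 CPM, lowest in Rux in both. In EPI cells it was at 25.1, 19.0 and 12.0 CPM. Cdkn1b was lower in UV than in CON in 8 of 10 classes, with the interval below 0 in 6, and higher in Rux than in UV in 9 of 11, with the interval above 0 in 4. In LEC-like cells it was at 86.0, 61.6 and 97.3 CPM, lowest in UV, with ratios of −0.48 and 0.66. These classes share their libraries, so they are not separate observations of a condition.

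Cdkn1a showed no common direction. For UV over CON its ratio was above 0 in 3 classes (KB-like, EPI and VEC-like) and below 0 in 8, with every interval clear of 0, and for Rux over UV none of the 11 classes passed 1.5-fold. In LEC-like cells it was at 991, 666 and 491 CPM and in PCY-like cells at 1103, 730 and 545 CPM, lower in UV than in CON and lower again in Rux. In VEC-like cells it was at 917, 1045 and 876 CPM, but UV was above CON in cluster 15 (555 and 812 CPM) and below it in clusters 22 (1589 and 1283) and 31 (1435 and 1102). Cluster 22 held 112 CON and 265 UV cells, and with CON cluster weights the VEC-like ratio was 0.05. Immediate-early genes summed to 23223 CPM in CON and 16160 in UV PCY-like, 19670 and 14564 in LEC-like and 19369 and 15249 in mast cell-like cells. The sums were 8838 and 6274 in MYE-like, 6795 and 4524 in LYM-like and 7782 and 5593 in IRS-like cells. Cdkn1a was lower in UV in these classes too. In VEC-like (16045 and 13991) and EPI cells (9323 and 8374) the sum was lower but Cdkn1a was higher. In SCH-like cells (17641 and 18391) the sum was higher but Cdkn1a was lower. Both were higher in KB-like cells (12813 and 13303). The part of immediate-early genes was not tested. In IRS-like cells Cdkn1a was at 587, 475 and 427 CPM. LYM-like cells had 388, 191 and 181 CPM, a UV over CON ratio of −1.02. A Trdc-led LYM-like cluster (43) had 90 cells in CON, 2 in UV and 1 in Rux, and 655 CPM of Cdkn1a in CON. The LYM-like ratio with CON cluster weights, −0.28, leaves that cluster out and so covers only part of the class. Summed over all cells, Cdkn1a differed by 0.03 between UV and CON, at 341 and 334 CPM, and by −0.27 with CON cluster weights.

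The other classes held smaller or less certain differences. Cdkn1a was at 968, 834 and 1094 CPM in SCH-like cells, 630, 443 and 520 in MYE-like cells and 764, 486 and 565 in mast cell-like cells, lowest in UV in all of them. Cdkn1b in EPI cells was at 83.5, 60.6 and 69.0 CPM, and in IRS-like cells at 90.8, 59.2 and 60.9 CPM, highest in CON in both. Cdkn1c in VEC-like cells was at 56.2, 72.5 and 49.5 CPM, highest in UV in the class sum, with ratios of 0.37 and −0.54. Within each VEC-like cluster Cdkn1c was instead highest in CON, although the CON and UV intervals overlapped. It was at 19.5, 17.0 and 16.7 CPM in cluster 15 and 160, 143 and 103 in cluster 22. In cluster 31 it was at 86.5, 76.4 and 59.7 CPM. Cdkn2a in EPI cells was at 3.32, 2.91 and 3.75 CPM from 218, 107 and 100 UMIs, and no library differed from another by over 1.5-fold. In IRS-like cells it was at 6.94, 3.72 and 7.66 CPM, lowest in UV, but these ratios turned to 0.22 for UV over CON and −0.16 for Rux over UV when each cell had equal weight. Cdkn2c in EPI cells was at 16.7, 13.4 and 11.0 CPM and in IRS-like cells at 16.6, 16.5 and 10.7 CPM, lowest in Rux in both. Over all cells Cdkn2a was at 10.4 CPM in CON, 4.58 in UV and 13.0 in Rux, with ratios of −1.19 (−1.34 to −1.05) and 1.51 (1.37 to 1.66). With CON cluster weights the Rux over UV ratio was 0.52, and without the Igfbp2 cluster the UV over CON ratio was −0.72. The Rux over CON ratio was 0.32 in the sum, −0.15 with equal weight per cell and −0.75 with CON cluster weights, so no order of those libraries is read from it.

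The partners and regulators of the members were counted from gene lists. In FB-like cells, 7 of 10 CDK and cyclin genes passed the low-value filter, of which none was higher and 3 were lower in UV than in CON by over 1.5-fold, with a median of −0.57. Over all genes tested in FB-like cells, 6.52% were higher and 7.93% lower, with a median of −0.10, and the counts that follow stand beside these shares. The 3 lower genes were Ccnd1 (−1.79), Ccnd2 (−1.20) and Cdk6 (−0.79), and Cdk7 was the highest at 0.05. Ccnd1 and Ccnd2 are cyclin D genes, and CDK6 is, beside CDK4, a kinase that INK4 proteins bind. Of 7 RB and E2F genes that passed, none was past the fold, with a range from Rbl1 at −0.42 to E2f3 at 0.55. Of 17 regulators of the Cdkn2a locus, 1 was higher (Ets1, 0.76, an activator of p16 transcription) and 4 were lower, among them the repressors Id1 (−1.21), Tbx3 (−0.89) and Twist1 (−0.81). Of 14 regulators of the CIP/KIP genes, 1 was lower (Trp63, −1.25). Foxo1 was the highest at 0.33, while Trp53 was at −0.50 and its target Mdm2 at 0.08, both within 1.5-fold. Of 14 other senescence-associated genes, 3 were lower and none higher, from Gdf15 at −1.60 to Lmnb1 at 0.52. That list was not split by the direction in which a gene differs in senescence, so its counts here and below give no direction of senescence. Of 8 genes of CDK inhibitor turnover, none was past the fold. All 12 proliferation genes were too low in FB-like cells to count.

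Between Rux and UV in FB-like cells, where 3.40% of all genes tested were higher and 5.53% lower, none of the CDK and cyclin, RB and E2F, CIP/KIP regulator or turnover genes was past 1.5-fold in the counts of genes that passed the filter, apart from Ccne2 (−0.73) and E2f7 (−1.44), which did not pass it. Tbx3, a repressor of the Cdkn2a locus, was higher in Rux at 1.37. Of 14 other senescence genes, 4 were higher, among them Gdf15 (1.06), Trp53inp1 (1.06) and Bcl2l1 (0.63), and none was lower. In KB-like cells, where 14.5% of all genes tested were higher and 7.84% lower in UV than in CON, all 12 proliferation genes were higher in UV than in CON by over 1.5-fold, with a median of 1.79, from Ccna2 at 1.21 to Rrm2 at 2.38. Of 15 regulators of the CIP/KIP genes, 4 were higher, including Foxo3 at 1.44 and Mdm2 at 0.94, and 1 was lower (Trp63, −1.01). The urokinase receptor gene Plaur was at 2.18 and Igfbp3 at −2.12 among 12 other senescence genes, of which 3 were higher and 3 lower. The KB-like class also differed between libraries in cluster makeup and depth, as given above. In the larger EPI class, none of the 12 proliferation genes was higher in UV than in CON by over 1.5-fold. There 2 were lower, with a median of −0.26, beside 4.76% of all genes tested higher and 3.26% lower.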

How the data were processed

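The deposited matrices hold raw UMI counts per gene and cell, which the authors made with Cell Ranger; the file headers give version 7.0.0 and the labels 6.1.2. All columns were used. Cells with at least 200 genes and at most 10% mitochondrial counts were kept, and Scrublet (scanpy 1.11.5) doublets were removed at a rate set by the cell number of each library, which took out 1269 CON, 1128 UV and 923 Rux cells. Seurat 5.3.0 clustered the rest (1999 variable genes after members were left out, 30 principal components, resolution 1.5) into 46 clusters, of which 42 were named when at least 3 of 6 markers were found in 10% of cells. Counts were summed per class and library. Member counts were compared as CPM with exact Poisson or binomial 95% intervals, and shares were also computed after thinning to 2000 UMIs. The ratio and interval code was tested on simulated data. Each condition was 1 library, so no model was fitted. Named genes were the 7 members, the 3 genes most like each, the highest and lowest gene of each list with at least 100 UMIs, and partners or regulators needed. The set of members, though listed by symbol, and the gene lists were chosen with earlier results of these data known. Alternatives covered cell filters, doublets, scaling, weights and resolution. Values of some list genes are not reported here.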

Additional observations from a re-analysis of the deposited data

Results flagged for a closer look

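Some members had intervals wholly above 0 in one class and wholly below 0 in another for the same pair of libraries. None of these differences between classes was tested, since each class had 1 library per condition. For UV over CON, the log2 ratio of Cdkn1a was 1.17 in KB-like and −1.02 in LYM-like cells, a difference of 2.19. Cdkn2c was at 1.06 in KB-like and −0.96 in FB-like cells, a difference of 2.02, and Cdkn2d at 0.68 in KB-like and −1.07 in MYE-like cells, a difference of 1.75. For Rux over UV, Cdkn2c was at 0.65 in VEC-like and −0.62 in IRS-like cells, a difference of 1.27. For Rux over CON, Cdkn1a was at 1.15 in KB-like and −1.10 in LYM-like cells, a difference of 2.25, and Cdkn2c at 1.06 in KB-like and −0.92 in FB-like cells, a difference of 1.98. Dividing cells were 15.9% of the KB-like class in CON, 79.0% in UV and 48.1% in Rux, where Cdkn2c was at 15.2, 31.6 and 31.5 CPM and Cdkn2d at 38.5, 61.5 and 36.4 CPM. The median depth of the KB-like class was 11606, 28783 and 22556 UMIs. The Trdc-led LYM-like cluster had 90, 2 and 1 cells. The part of cells with proliferation transcripts, of depth and of that cluster was not tested.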

How the results depend on the processing

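No paired analysis was possible because each condition was 1 library, and no library could be left out. Counting error limited Cdkn2a and Cdkn2b outside FB-like and keratinocyte cells. Of 66 values that answer a comparison under other settings, 54 moved by less than their interval and 12 moved further, and of 1557 others 1352 and 197 did. Among those past 1.5-fold, 0 of the former and 8 of the latter changed sign. The cause was not tested. For UV over CON, Cdkn1a in FB-like cells was −0.92 with median-of-ratios scaling, −0.83 with equal weight per cell and −0.75 with CON cluster weights, and in KB-like cells 1.04 at 20% mitochondrial counts, 1.34 with equal weight and 1.05 with CON weights. For Rux over UV, Cdkn1a in KB-like cells was 0.18 without doublet removal, 0.16 at resolution 0.8 and −0.16 with CON weights. Cdkn2a over all cells was −1.47 for UV over CON and 1.31 for Rux over UV with equal weight, and 0.52 for the latter with CON weights. In settings added after seeing the data, Cdkn1a in FB-like cells was −0.93 and 0.025 with unnamed fibroblast-marker clusters added and −0.10 for Rux over UV without cluster 13, and Cdkn2a over all cells −0.72 and 1.18 without cluster 13. Values past 1.5-fold that changed sign were, in KB-like cells, Cdkn2c UV over CON at resolution 0.8 (−0.25), Cdkn2d UV over CON with CON weights (−0.32) and Cdkn1c Rux over CON at 20% mitochondrial counts (−0.026) and at resolution 0.8 (−1.57). In IRS-like cells with equal weight, Cdkn2a was 0.22 for UV over CON and −0.16 for Rux over UV. In MYE-like cells, Cdkn2b UV over CON was −0.56 with at least 500 genes and at most 5% mitochondrial counts, and Cdkn2c Rux over CON was 0.031 at 20%. The count of FB-like members lower in UV was 4, but 5 with unnamed clusters added and 3 at 2-fold. With CON cluster weights Cdkn2c (−0.52) was no longer among them, and Cdkn1c was higher in UV past 1.5-fold (0.67). The count past 1.5-fold for Rux over UV was 3, but 2 without cluster 13.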

Other observations

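Genes whose levels followed each member most closely were found from log2(CPM + 1) over 41 class-by-library profiles of 17 classes, among 9690 genes. The profiles share libraries and depth, so Spearman's rho is a description. For Cdkn1a these were Sertad1 (0.843), a regulator of CDK4 activity, Zfp703 (0.791) and Myo1c (0.762). For Cdkn1b they were Becn1 (0.859), an autophagy gene, Map4k2 (0.782) and 5430405H02Rik (0.768). Cdkn1c was closest to Ecm2 (0.861), an extracellular matrix gene, Uaca (0.848) and Thsd7a (0.832). Cdkn2a was closest to Hk2 (0.733), a hexokinase gene, AI506816 (0.678) and Sytl2 (0.676). Cdkn2b was closest to Rnd3 (0.797), Rps27l (0.796) and Cd109 (0.791). Cdkn2c was closest to Rab11fip2 (0.828), Nek1 (0.806) and Mlec (0.806), and Cdkn2d to Fam53b (0.695), Fam76a (0.695) and Nub1 (0.693). Among the members, rho was 0.650 between Cdkn2a and Cdkn2b, −0.339 between Cdkn1a and Cdkn2a, and 0.493 between Cdkn1a and Cdkn2d.

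Cdkn2a was also present in cells that stayed unnamed. Cluster 12 had fibroblast markers, but more of its leading genes were pericyte markers than fibroblast markers. Its genes named here, after their values were seen, are Col11a1, Lrrc15 and Acta2. The study lists Col11a1 as a reticular fibroblast gene and Acta2 as a pericyte marker. Cluster 12 held 120 CON, 200 UV and 363 Rux cells. Its Cdkn2a level was 29.4 CPM in CON, 35.1 in UV and 26.0 in Rux, and the level intervals overlapped. The ratios were 0.25 (−0.24 to 0.75) for UV over CON and −0.44 (−0.84 to −0.02) for Rux over UV, the latter below 0. The cluster thus did not share the low UV level of the FB-like cells. Its Cdkn1a level was 232, 271 and 186 CPM, highest in UV. In cluster 16, led by Adgrb3 and Lingo2, Cdkn1a was at 340, 580 and 514 CPM in 243, 256 and 92 cells, and both irradiated libraries were above CON.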
